A study of Mus musculus with 8 samples.

Results

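Adenosine receptors and the enzymes and transporter that set adenosine levels were examined in mouse hemogenic endothelium, endothelial cells able to give rise to blood, with and without induction of the transcription factor Runx1. The genes were Adora1, Adora2a, Adora2b and Adora3 (receptors), Nt5e and Entpd1 (extracellular enzymes), Ada and Adk (intracellular enzymes), Slc29a1 (transporter) and Dpp4 (a surface protein that binds adenosine deaminase in humans). All array probes whose RefSeq accession belongs to 1 of these 10 genes were taken, which gave 12 of the 55681 probes. Of these, 11 probes of 9 genes were bright enough to be kept among the 14519 genes fitted together. The genes were chosen by their place in the pathway and with the induced against uninduced differences on these same arrays known, Adora1 being among the lowest in induced cells, so their values are described here without a test of their own.

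Extracellular ATP and ADP are cut to AMP by CD39, the product of Entpd1, and AMP is cut to adenosine by CD73, the product of Nt5e. Adenosine acts through G protein-coupled receptors, of which A1 and A3 lower cyclic AMP and A2a and A2b raise it. It enters and leaves cells through equilibrative transporters such as ENT1, the product of Slc29a1, and inside the cell it is deaminated to inosine by Ada or phosphorylated back to AMP by Adk. In endothelium this pathway is known for its part in vessel tone, barrier function and the damping of inflammation.

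All cells were of the line labelled iRUNX1, in which doxycycline turns on a Runx1 gene through a Tet-on system, and of the strain C57BL/6. Embryoid bodies were grown from embryonic stem cells over 3.25 days, Flk-1+ cells were sorted, cultured and sorted again, and these were grown for 2 days as hemogenic endothelium. Induced cells (DOX+) received 0.3 µl/ml doxycycline overnight, in the unit the labels use, and uninduced cells (DOX-) carried the same inducible gene without induction. Each group had 3 arrays labelled as replicates and 1 further array titled a technical replicate, kept apart because the labels do not say whose RNA it repeats. No array of cells that lack the inducible gene but received doxycycline is part of the comparison, so effects of the drug and of Runx1 cannot be told apart. The number of clones of the line and the state of its own Runx1 alleles were not given in the sources used here.

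Processed signals had their 75th percentile at 543 to 973 on the induced arrays and 338 to 699 on the uninduced arrays, and 54.7% to 69.7% of probes were well above background on an array. All levels below are log2 values relative to that percentile of the same array, and differences are induced minus uninduced. All 8 endothelial marker genes were well above background on every array. Of 7 smooth muscle and mesenchymal markers 6 were well above background on all arrays of each group, with a summed signal of 551 to 658 times the 75th percentile in induced cells and 751 to 869 times in uninduced cells. Without Acta2, the brightest, the sums overlapped, at 277 to 397 times in induced and 378 to 408 times in uninduced cells. In the fit described below, 0 of the 7 passed. The only Runx1 probe above background, A_55_P2183438, was at -5.60 ± 0.60 in induced and -4.57 ± 0.25 in uninduced cells (SD, n = 3 each; limma adjusted p = 0.126), and since the sources do not show whether the inducible gene holds its target sequence, it does not check the labels. In the table of log2 values that the authors deposited beside the scanner files, 6 of 8 columns followed a different array from the one they are named for. The columns, in order, followed uninduced replicates 1, 2 and 3 and the uninduced technical repeat, then the induced arrays in the same order. The files do not settle which of the labels are right. The scanner files were used under their own labels, and every direction below rests on those. With the table's columns as named, 0 of 14519 genes passed in limma (222 at an unadjusted p under 0.05). The differences were then 0.72 for Adora1, -0.094 for Nt5e, 0.20 for Slc29a1 and 0.74 for Entpd1.

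Among the 9 genes measured, Adora1 fell, while Nt5e and Slc29a1 rose 6.40-fold and 2.89-fold. Adora1 was 13.4-fold lower in induced cells as processed here, but its induced signals were near background, 1 of the 3 not well above it, and the fold was 3.63 with a model-based background correction (normexp) and 6.15 with scaling to spike-in RNA. These 3 genes were past the threshold of the limma fit (adjusted p under 0.05 over all genes), where 6.30% of all genes were, and the other 6 were not. By direction, 2 of the 9 were past it on the higher side, against 4.14% of all genes, and 1 on the lower side, against 2.16%. Nothing is read from that count, since the genes were chosen with this contrast known. The groups did not overlap for 5 of the 9, namely Adora1, Nt5e, Entpd1, Ada and Slc29a1, against 28.3% of all genes. When replicate number was a block in the fit, Entpd1 and Ada also passed, both lower in induced cells, which made 5 of 9 against 16.2% of all genes. The median difference was -0.36 over the 9 genes and 0.089 over all genes tested. RNA was taken from whole cultures, so fewer cells of a type and less RNA per cell cannot be told apart in any of these values.

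**Figure D1:**
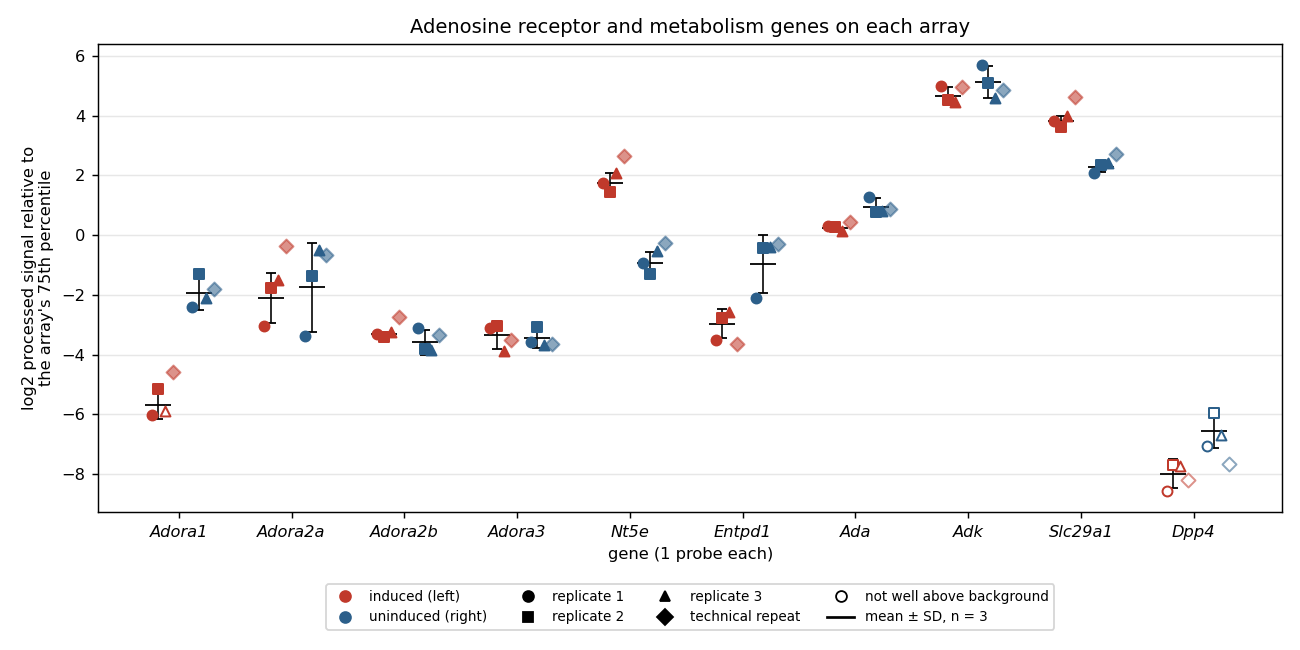
Relative log2 level (log2 of signal over the array's 75th percentile) of each gene on every array, induced arrays left and uninduced arrays right, with paler diamonds for the technical repeats, open symbols for arrays not well above background, and bars for the mean ± SD of the 3 replicates. Adora1 lies between -6.01 and -5.14 on the 3 induced arrays and between -2.40 and -1.28 on the 3 uninduced arrays, Nt5e and Slc29a1 lie higher on every induced array, and Adora2a, Adora2b and Adora3 overlap between the groups.

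The promoters of the genes with the widest separation are printed because Runx1 is a DNA-binding factor whose core recognition sequence is TGTGGT. Each is a 300-base window, 250 bases before to 50 after a transcription start, from RefSeq on GRCm38.p6, written 5′ to 3′ on the gene's strand in lower case. Capitals mark TGTGGT or its reverse complement ACCACA. The windows are the first of 2 for Adora1, the only one for Nt5e and, chosen because they hold a match, the second of 2 for Entpd1 and the third of 8 for Slc29a1.
Adora1 (chr1:134235408-134235707, minus strand): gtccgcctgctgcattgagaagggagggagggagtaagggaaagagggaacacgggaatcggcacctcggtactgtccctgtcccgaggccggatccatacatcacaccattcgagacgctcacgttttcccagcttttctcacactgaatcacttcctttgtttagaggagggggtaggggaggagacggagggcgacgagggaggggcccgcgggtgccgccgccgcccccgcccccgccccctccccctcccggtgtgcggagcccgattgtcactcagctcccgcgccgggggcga
Nt5e (chr9:88327359-88327658, plus strand): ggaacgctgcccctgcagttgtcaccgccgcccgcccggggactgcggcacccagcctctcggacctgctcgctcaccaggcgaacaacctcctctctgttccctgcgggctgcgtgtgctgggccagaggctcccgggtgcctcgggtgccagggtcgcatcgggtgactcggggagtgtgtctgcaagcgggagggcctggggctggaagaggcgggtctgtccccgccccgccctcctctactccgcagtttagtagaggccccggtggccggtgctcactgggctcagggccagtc
Entpd1 (chr19:40659520-40659819, plus strand): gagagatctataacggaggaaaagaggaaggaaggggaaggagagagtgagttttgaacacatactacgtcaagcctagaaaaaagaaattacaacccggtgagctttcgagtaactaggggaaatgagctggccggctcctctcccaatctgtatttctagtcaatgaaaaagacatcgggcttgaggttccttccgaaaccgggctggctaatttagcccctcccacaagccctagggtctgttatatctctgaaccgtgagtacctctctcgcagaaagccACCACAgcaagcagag
Slc29a1 (chr17:45596078-45596377, minus strand): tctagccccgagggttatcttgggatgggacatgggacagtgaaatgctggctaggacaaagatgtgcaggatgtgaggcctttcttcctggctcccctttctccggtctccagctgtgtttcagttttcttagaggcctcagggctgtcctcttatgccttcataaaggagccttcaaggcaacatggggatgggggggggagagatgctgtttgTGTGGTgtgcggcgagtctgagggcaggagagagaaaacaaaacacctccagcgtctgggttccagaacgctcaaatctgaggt

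RefSeq gave 19 such windows for 9 of the 10 genes, with none for Adora2a. The letters TGTGGT, searched on both strands, were found in 2 of the 19, the Entpd1 window above (ACCACA starting at base 35 after the start) and the Slc29a1 window above (TGTGGT starting at position -34). Across all 32851 windows 16.8% held them. By gene, 2 of 9 had a window with them, against 18.9% of all genes, and Slc29a1 had 8 windows in which to hold one. The second form TGCGGT was in 0 of the 19 windows and in 6.45% of all windows. The windows of Adora1 and Nt5e held neither form. These matches are letters in a window, and no binding was measured here.

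Among the receptors, Adora1, which encodes the A1 receptor, was the one that separated the groups. Its single probe (A_55_P2101776, NM_001008533) was at -6.01, -5.14 and -5.87 in induced replicates 1, 2 and 3, against -2.40, -1.28 and -2.11 in uninduced replicates 1, 2 and 3. All 3 induced arrays lay below all 3 uninduced ones. The means were -5.68 ± 0.47 in induced cells and -1.93 ± 0.58 in uninduced cells (SD, n = 3 each), a difference of -3.74 (SE 0.36). Within the replicate pairs the differences were -3.61, -3.86 and -3.76, a narrower spread (SD 0.12) than that between arrays of a group.

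The induced Adora1 signals were close to background. The processed signals were 15.1, 16.8 and 9.27 in induced cells and 132, 155 and 78.1 in uninduced cells, and induced replicate 3 was not well above background. The size of the difference moved accordingly with the handling of dim spots and with scaling, from -3.74 to -1.86 over the main and 9 alternative settings that kept it and kept arrays under their own labels, the smallest with normexp correction. Spike-in scaling gave -2.62. Adora1 was past the threshold in each of these, and a filter that asks for all 6 arrays well above background dropped it. The induced technical repeat read -4.57, above all 3 induced replicates, against -1.82 for the uninduced one, a difference of -2.75.

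Adora2a, which encodes the A2a receptor, varied more between replicates than between groups. It was at -3.05, -1.78 and -1.50 in induced replicates 1, 2 and 3, against -3.38, -1.37 and -0.50 in the uninduced ones, so the groups overlapped. Replicate 1 was the lowest array of both groups. The difference was -0.36 (SE 0.77), with pair differences of 0.33, -0.41 and -1.0. It was 0.76 with spike-in scaling, so that its sign depends on the scale. The summed endothelial markers were in the same order, at 50.8, 70.3 and 109 in induced and 59.7, 119 and 165 in uninduced replicates 1, 2 and 3 (in units of the 75th percentile). Their part in the Adora2a values was not tested.

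Adora2b and Adora3, which encode the A2b and A3 receptors, differed little between the groups on the 75th percentile scale. The brighter Adora2b probe was at -3.29, -3.40 and -3.25 in induced and -3.10, -3.81 and -3.83 in uninduced replicates, a difference of 0.27 (SE 0.23). The second Adora2b probe differed by 0.13. Adora3 ranged from -3.88 to -3.05 in induced and from -3.68 to -3.08 in uninduced cells, with a difference of 0.10 (SE 0.28). Neither gene was past the threshold in any setting. With normexp correction the differences were -0.14 for Adora2b and -0.22 for Adora3, and with spike-in scaling 1.39 and 1.22, so sign and size depend on the processing. A signal depends on the probe as well as on the transcript, so no order of the receptors is given.

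Nt5e, whose product CD73 makes adenosine from AMP at the cell surface, rose in induced cells. Its probe (A_52_P574668, NM_011851) was at 1.74, 1.45 and 2.08 in induced replicates 1, 2 and 3, against -0.95, -1.28 and -0.54 in uninduced ones. All 3 induced arrays lay above all 3 uninduced ones. The means were 1.76 ± 0.32 in induced and -0.92 ± 0.37 in uninduced cells (SD, n = 3 each), and the difference was 2.68 (SE 0.25). The pair differences of 2.69, 2.73 and 2.62 (SD 0.058) were the most even of the 9 genes. The technical repeats gave 2.64 in the induced and -0.26 in the uninduced array. Nt5e was past the threshold in the main and all 10 alternative settings that kept arrays under their own labels, at 2.34 to 3.80, and without each array in turn.

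Entpd1, whose product CD39 supplies AMP to CD73, was lower on every induced array. It did not pass the threshold in the main fit, which leaves the pairs out, and passed with the replicate block. The probe (A_55_P2032853, NM_009848) was at -3.52, -2.77 and -2.59 in induced replicates 1, 2 and 3, against -2.09, -0.43 and -0.38 in uninduced ones. The groups did not overlap, but uninduced replicate 1 lay far below the other uninduced arrays. The means were -2.96 ± 0.49 in induced and -0.97 ± 0.98 in uninduced cells (SD, n = 3 each), a difference of -1.99 (SE 0.50). The pairs differed by -1.42, -2.35 and -2.21 and the technical repeats by -3.34. Without uninduced replicate 1 the difference was -2.55 and past the threshold, and with spike-in scaling it was -0.87 and not past it. The processed signals were 85.1, 87.0 and 90.4 in induced and 164, 282 and 260 in uninduced replicates, so the order held before any scaling between arrays. Uninduced replicate 1 was also the array of its group with the lowest endothelial marker sum, given above, and the part of the markers in the Entpd1 values was not tested.

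CD39 and CD73 act in sequence, and their transcripts stood on opposite sides in every replicate pair: Nt5e was higher and Entpd1 lower in the induced member of each of the 3 pairs and of the technical repeats.

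**Figure D2:**
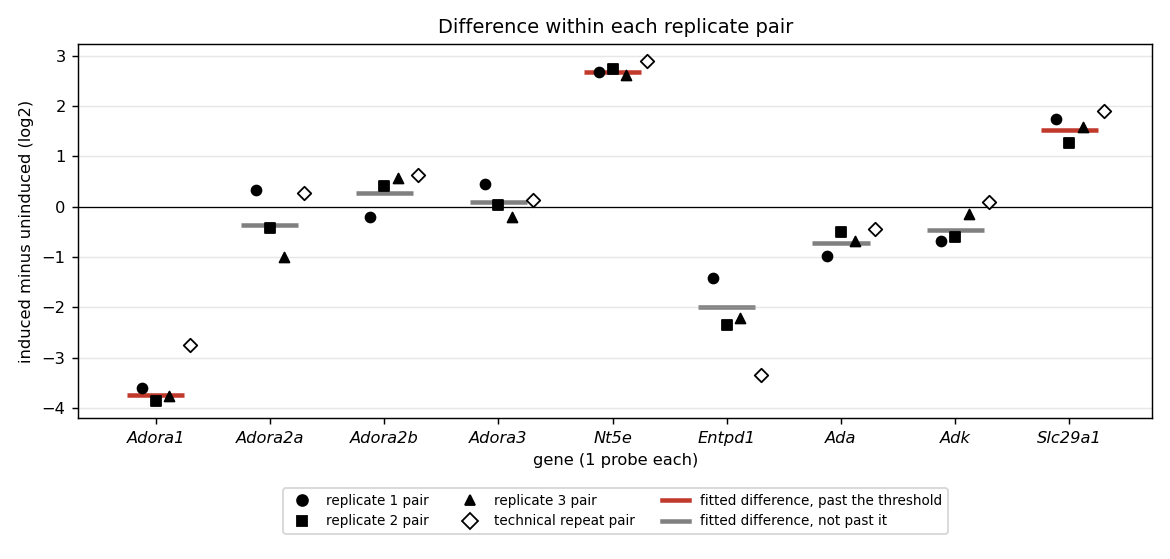
Induced minus uninduced relative log2 level within each replicate pair and between the technical repeat arrays, with 1 column per gene, and a bar at the fitted difference, red where past the threshold. Nt5e and Slc29a1 are above 0 and Adora1, Entpd1, Ada and Adk below 0 in all 3 pairs, while Adora2a, Adora2b and Adora3 have pairs on both sides of 0.

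Slc29a1, the ENT1 transporter through which adenosine crosses the membrane, rose in induced cells. Its probe (A_55_P2038737, NM_001199113) was at 3.83, 3.61 and 3.98 in induced replicates 1, 2 and 3, against 2.09, 2.34 and 2.40 in uninduced ones. The arrays of each group lay close together and the groups did not overlap. The difference was 1.53 (SE 0.17), with pair differences of 1.74, 1.27 and 1.58 and a technical pair difference of 1.91. It was past the threshold in the same 11 settings, at 1.43 to 2.65.

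The enzymes that remove adenosine inside the cell were lower in the induced member of every pair on the 75th percentile scale. Neither was past the threshold in the main fit, while Ada passed with the replicate block. Ada, adenosine deaminase, was at 0.31, 0.27 and 0.12 in induced replicates 1, 2 and 3, against 1.28, 0.76 and 0.81 in uninduced ones. The groups did not overlap, and the difference was -0.72 (SE 0.18), with pairs of -0.98, -0.50 and -0.69. Adk, adenosine kinase, was at 5.00, 4.51 and 4.45 in induced and 5.68, 5.10 and 4.59 in uninduced replicates on its brighter probe, and these overlap. The Adk difference was -0.47 (SE 0.31) on this probe and -0.70 on the second, whose groups did not overlap. The technical repeats differed by -0.44 for Ada and by 0.10 for Adk on the brighter probe. With spike-in scaling both genes turned positive, to 0.40 for Ada and 0.65 for Adk, so their direction rests on the scale. That scaling moves all values of an array together, and it put the median difference of all genes at 1.21 in place of 0.089. The place of both genes below that median is therefore the same on either scale and tells nothing further of their direction. Dpp4 stayed below the well-above-background mark on all 8 arrays and has no difference here.

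Markers of other cell types also differed between the groups. Of 8 blood cell markers 4 rose (Spn, Cd52, Coro1a and Was). Ptprc, Cd48, Itgam and Itga2b did not pass, with differences of -0.19, -0.12, -0.35 and 0.63. The summed list was at 43.7 to 58.5 in induced and 43.5 to 54.2 in uninduced cells. Most of that sum was Itgam, at 28.1 to 48.8 in induced and 41.2 to 51.3 in uninduced cells, and without it the sums were 7.86 to 15.6 in induced and 2.07 to 2.85 in uninduced cells. Of 6 mast cell markers Mcpt4 and Mcpt8 rose, with sums of 2.64 to 5.76 in induced and 0.506 to 0.632 in uninduced cells, and Cma1 and Ms4a2 were not above background on any of the 6 arrays. Tpsb2, above background on all 6 arrays, went the other way by -0.42 without passing. Cpa3 was above background on 1 induced and 0 uninduced arrays. The endothelial receptor gene Tek and the macrophage receptor gene Csf1r fell, with differences of -1.13 and -1.33 on a scale whose 75th percentile itself differed by 0.75 to 1.60 within the pairs when set against spike-in RNA. Every endothelial marker had a lower mean in induced cells on that scale. Emcn, Cldn5 and Esam differed by -2.84, -2.55 and -2.17 without passing. The endothelial sums given above were lower in the induced member of each pair. Macrophage sums were 2.03 to 3.37 in induced and 5.17 to 6.99 in uninduced cells. They were mostly Csf1r, and without it they were 0.144 to 0.235 in induced and 0.126 to 0.216 in uninduced cells. Lyz2 of that list went the other way, with a difference of 2.27 that did not pass (limma adjusted p = 0.0885) and signals above background on 3 induced and 0 uninduced arrays. Lymphocyte sums over 6 markers were 8.88 to 10.2 in induced and 7.93 to 15.2 in uninduced cells, where 0 of 6 passed in either direction and Cd3g and Ncr1 were not above background. Erythroid sums were 7.93, 39.1 and 25.8 in induced and 13.4, 168 and 62.9 in uninduced replicates 1, 2 and 3. Cardiac sums were 21.9, 7.75 and 4.24 in induced and 54.0, 20.3 and 10.6 in uninduced replicates 1, 2 and 3. Both were lower in the induced member of each pair, with 0 of their 11 genes past the threshold. Cardiac sums were mostly Tnnt2. Without it they were 2.55, 1.19 and 1.05 in induced and 1.91, 1.28 and 0.986 in uninduced replicates 1, 2 and 3. The induced member was then higher in replicates 1 and 3. Pluripotency markers summed to 0.831 to 1.02 in induced and 0.893 to 1.68 in uninduced cells, and 0 of 5 passed. Most of that was Nanog. Without it the order was reversed, with sums of 0.148 to 0.235 in induced and 0.120 to 0.146 in uninduced cells. The part of these cells in the values of the adenosine genes was not tested.

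Among the genes whose profile over the 6 arrays lay nearest to that of Adora1, by root mean square distance between centred log2 values, were Adamts15, Colec10, Samd5 and Slc14a1, at distances of 0.47 to 0.62 against a median of 1.99 over 14489 genes. They were picked for this likeness, so their differences are a description. Adamts15, a secreted metalloprotease, was at -2.78 ± 0.30 in induced and 0.61 ± 0.16 in uninduced cells (SD, n = 3 each). Slc14a1, a urea transporter, differed by -3.13 (SE 0.53) and Samd5 by -2.82 (SE 0.36). Colec10, a collectin, was not above background on any induced array and was at least 4.70-fold lower in induced cells on the 75th percentile scale. Its fitted difference was -1.10 with normexp correction, and -2.06 and not past the threshold with spike-in scaling. That bound sets its uninduced mean against, per induced array, the higher of the dimmest well-above-background signal and its own signal.

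**Figure D3:**
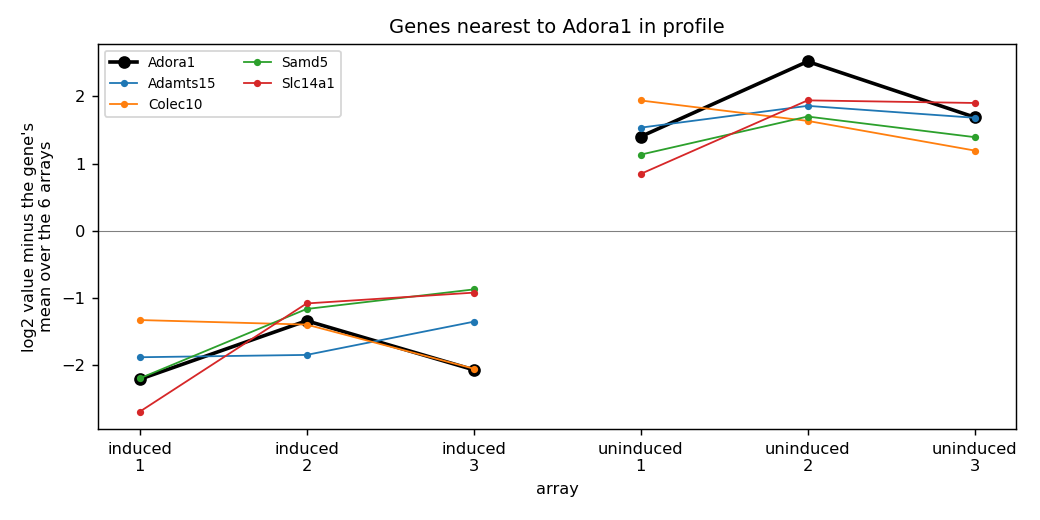
Relative log2 level of Adora1 and its 4 nearest genes, centred on each gene's mean over the 6 arrays, with induced arrays left and uninduced arrays right. All 5 profiles lie below 0 on the induced arrays and above 0 on the uninduced arrays.

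The rest of the pathway was covered by 5 lists with 95 of 115 genes measured, written as pathway lists with earlier results of these data known. Of the 95 genes, 11 rose and 4 fell, which is 15.8% of them beside 6.30% of all genes, and 80 did not pass the test. Their median difference was 0.15, beside 0.089 over all genes. With replicate number as a block, 24 rose and 10 fell, where 16.2% of all genes passed.

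Among 15 extracellular nucleotide enzymes, 2 rose, 1 fell and 12 did not pass, with a median difference of -0.078 (5 rose and 2 fell with the replicate block). Alpl, tissue-nonspecific alkaline phosphatase, which can also release adenosine from AMP, was at -1.42 ± 0.45 in induced cells and not above background on any uninduced array, where it read -6.28 ± 0.39. It was at least 15.3-fold higher in induced cells (limma adjusted p = 0.00101). Enpp1, which cuts ATP to AMP and pyrophosphate, was likewise not above background in uninduced cells and at least 4.94-fold higher in induced cells (limma adjusted p = 0.00296), though with normexp correction its difference shrank to 0.66 and did not pass. Both bounds are formed as for Colec10, with the groups exchanged, and neither holds with normexp correction. Entpd8, a relative of Entpd1, was at -4.01 ± 0.27 in induced and -3.08 ± 0.23 in uninduced cells (limma adjusted p = 0.0464), and its difference of -0.93 turned to 0.20 with spike-in scaling. Entpd8 passed in the main and 4 of 10 alternative settings, and adjusted p in limma was 0.0557 with median centring, 0.151 with normexp, 0.0993 without a filter on dim probes, 0.0625 with slide column as a block and 0.0537 in the deposited table read by the array each column follows. The brightest gene that did not pass was Entpd4, an intracellular member of the family, at 3.45 ± 0.12 in induced and 3.53 ± 0.15 in uninduced cells.

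Among 10 transporters and ATP release channels, Panx3 and Panx1 rose and 8 genes did not pass (3 rose and 1 fell with the replicate block). Panx1, a channel that releases ATP, was at 4.04 ± 0.30 in induced and 3.06 ± 0.21 in uninduced cells (SD, n = 3 each; limma adjusted p = 0.0416). Panx3, a relative of Panx1, was not above background on any uninduced array and was at least 7.06-fold higher in induced cells (limma adjusted p = 0.00324), and with normexp correction it differed by 1.13 without passing. Gja1, a connexin, was the brightest that did not pass, at 0.040 ± 0.16 in induced and -0.22 ± 0.45 in uninduced cells.

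Among 10 P2 receptors, which bind ATP, ADP and other nucleotides, P2ry1 rose, P2ry6 fell and 8 did not pass (3 rose and 2 fell with the replicate block). P2ry1, an ADP receptor, was at 0.98 ± 0.35 in induced and -0.86 ± 0.40 in uninduced cells (difference 1.84, SE 0.27, limma adjusted p = 0.0126). P2ry6, a UDP receptor, was at -1.72 ± 0.57 in induced and 0.12 ± 0.55 in uninduced cells (difference -1.84, SE 0.38, limma adjusted p = 0.0384), and with spike-in scaling its difference was -0.72 and not past the threshold. P2rx4, an ATP-gated channel and the brightest of those not past it, was at 2.29 ± 0.22 in induced and 1.56 ± 0.21 in uninduced cells.

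Of 27 intracellular enzymes of adenosine and purine salvage, 0 passed in limma, and the median difference was 0.26. At an unadjusted p under 0.05, 6 were higher and 0 lower, beside 2016 higher and 1127 lower of all 14519 genes. With the replicate block 6 of these enzymes were also higher and 0 lower, beside 1360 higher and 987 lower over all genes. The brightest, Aprt, adenine phosphoribosyltransferase, was at 6.48 ± 0.34 in induced and 6.55 ± 0.17 in uninduced cells.

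Downstream of the receptors, 33 genes of G protein and cyclic AMP signalling were measured, and 6 of them rose, 2 fell and 25 were not past the threshold, with a median difference of 0.15 (7 rose and 5 fell with the replicate block). Gnai1, an inhibitory G protein subunit of the kind to which the A1 receptor couples, fell to -2.29 ± 0.34 in induced cells, against -0.89 ± 0.35 in uninduced cells (SD, n = 3 each; limma adjusted p = 0.0258), and with spike-in scaling its difference of -1.39 was -0.27 and did not pass. Gnao1, another subunit of that class, rose by 2.71 (SE 0.35), or 1.31 with normexp, and was above background on 2 of 3 uninduced arrays. Gnai2 and Gnai3, of the same class and named after their values were seen, did not pass, with differences of -0.027 and 0.15. They were at 6.70 and 4.73 in induced cells and at 6.73 and 4.57 in uninduced cells. Among adenylyl cyclases, which make cyclic AMP, Adcy7 rose to -0.70 ± 0.31 in induced cells, against -3.45 ± 0.54 in uninduced cells (limma adjusted p = 0.00515). Adcy1 was lower by a fitted difference of -2.22 (SE 0.44, limma adjusted p = 0.0345), but it was above background on only 1 of 3 induced arrays and the technical repeats differed by 0.66 in the opposite direction. With normexp its difference was -0.77 and did not pass (limma adjusted p = 0.133). The phosphodiesterases Pde4d and Pde3b, which break cyclic AMP down, rose by 1.89 (SE 0.18) and 1.44 (SE 0.30). The other 2 that rose were Adcy9 and Pde7a, outside the 6 largest changes and named after their values were seen. Pde4c, the brightest that did not pass, was at 7.26 ± 0.12 in induced and 7.24 ± 0.17 in uninduced cells.

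**Figure D4:**
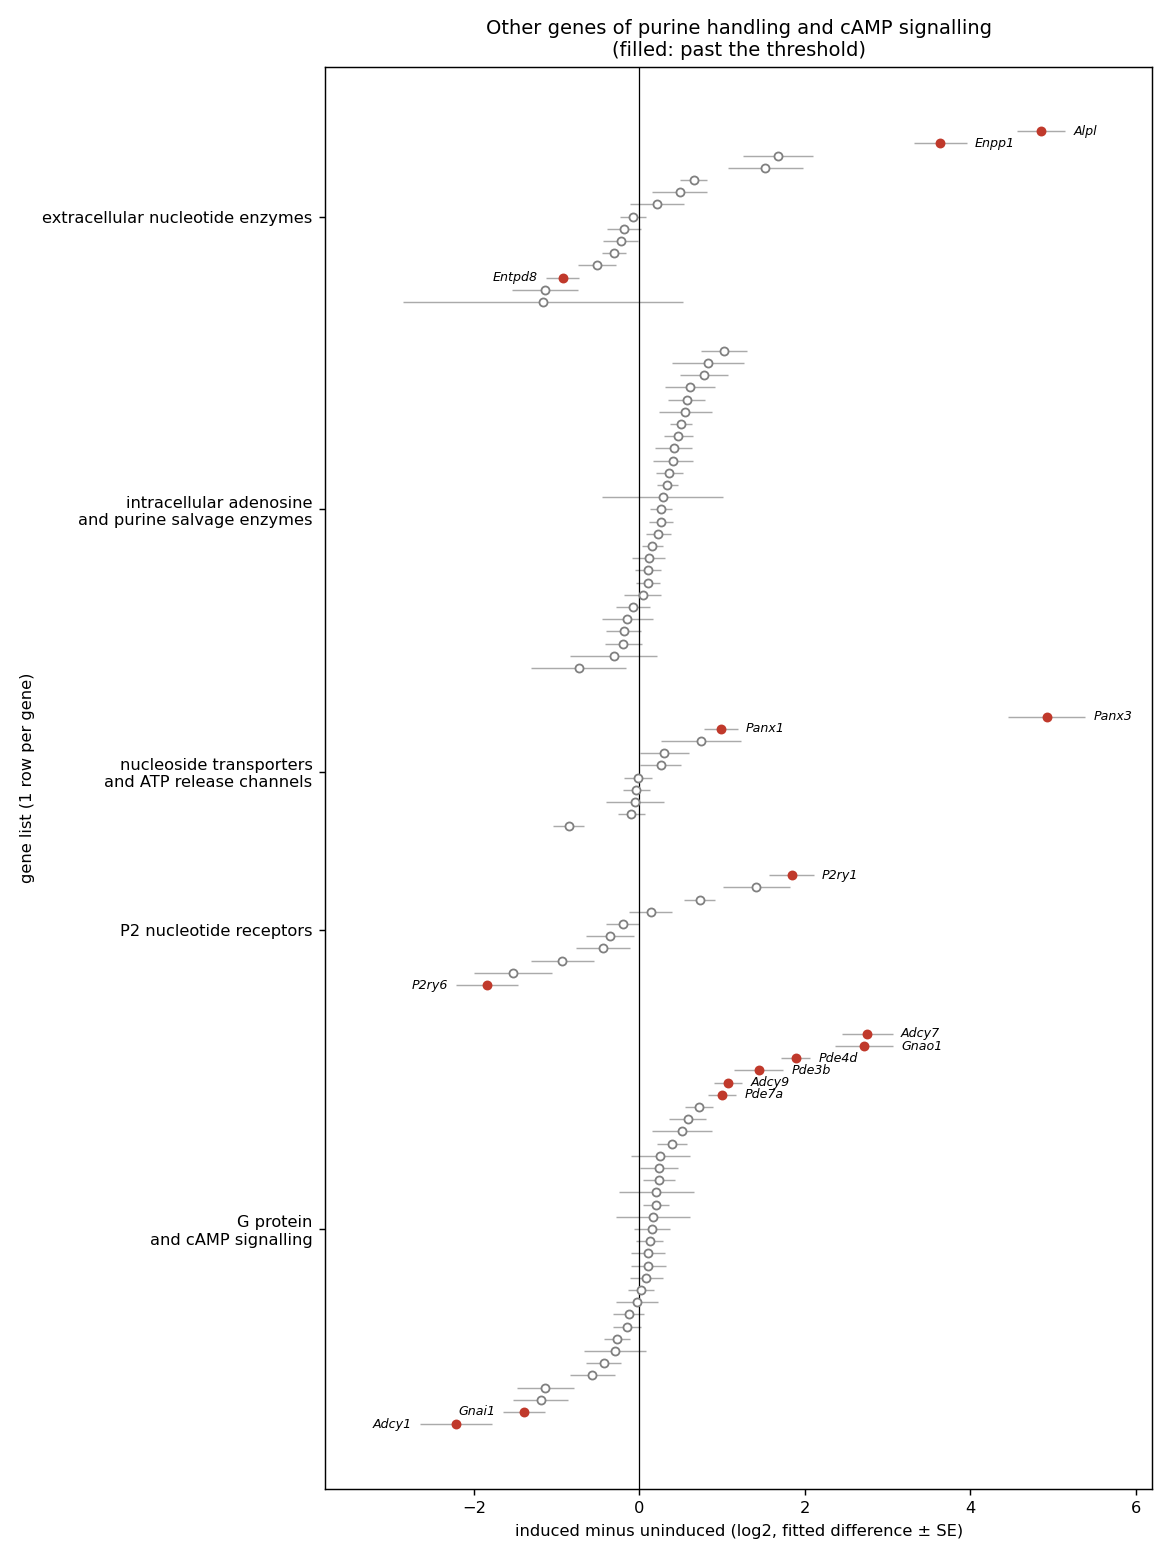
Fitted induced minus uninduced difference (log2, with SE) of the 95 measured genes of the 5 pathway lists, with filled points for the 15 past the threshold. Alpl, Enpp1 and Panx3 lie farthest to the right, and the 27 salvage enzymes are all open points.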

How the data were processed

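RNA (25 ng) was labelled with Cy3 and hybridised to 1-colour Agilent arrays, all 8 on 1 slide with 1 scan time per the file headers. The authors deposited spot intensity values from Feature Extraction, version 10.7.3.1 per the file headers and 10.7.1.1 per the submitters' processing notes, which also name limma. The processed intensity is background-subtracted and not normalized between arrays. Beside these files stood a deposited table of log2 values, with no normalization or centring stated in the sources at hand. The medians of its columns were 5.37, 5.37, 5.38, 5.38, 5.38, 5.36, 5.38 and 5.36. Over 19751 bright spots (log2 median signal above 7 on all arrays), the columns rose with signal on a log2 scale, but only 2 of 8 followed the array they are named for, and 6 followed another (r 0.96 to 0.99). The table was used only as an alternative, in both readings.

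From the scanner files, log2 processed signals were set relative to each array's 75th percentile, control spots and outlier spots (114 to 246 per array) were left out, and repeated spots were averaged per probe. Saturation was found on 0 spots. A probe was kept if well above background on all 3 arrays of at least 1 group. Of 55681 probes, 26582 were named through RefSeq accessions (GRCm38.p6 gene table), 29099 were not named, and the brightest kept probe stood for each of 14519 genes. The 3 induced and 3 uninduced arrays were compared with limma 3.58.1 (R 4.3.3) by two-sided tests, adjusted over all genes after Benjamini and Hochberg, at 0.05. The number of arrays limits the precision. The code was tested on simulated data.

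Same-numbered induced and uninduced arrays deviated together from their group means (correlations of 0.65, 0.45 and 0.43, against -0.47 to 0.13 for different numbers), so the numbers were taken to pair the samples. The main fit did not use these pairs, and calls are those of the main fit unless the replicate block or another setting is named. Nothing in the files shows how far the replicates are separate cultures beyond the series' statement that they are independent. The members and the lists were chosen with earlier results of these data known. Named genes were all members, in each pathway list up to 6 genes past the threshold by size of difference with the brightest gene not past it, the 5 genes nearest Adora1, and Runx1. Of those 5 nearest genes 4 are given, and 1 of them and 1 lymphocyte marker are not reported here. Alternatives changed the scaling, background correction, probe filter, choice of probe, block, source of the values and the arrays included. The mean-signal column was not used here, so normexp (offset 50) took the median signal.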

Additional observations from a re-analysis of the deposited data

How the results depend on the processing

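Nt5e and Slc29a1 kept their direction and passed in the main and all 10 alternative settings that kept arrays under their own labels and in all 6 fits that left out 1 array, and so did Adora1 wherever it was kept. Each of these genes has 1 probe, so settings that change only the filter, block or choice of probe cannot move its difference. Such settings can alter only the adjusted p. The deposited table read by the array each column follows is also among the 10. Of 489 values of 31 named genes outside the deposited table's columns as named, 18 had another sign than in the report. Members gave 10 of these, all for genes not past the threshold: Ada (0.40), Adk (0.65) and Adora2a (0.76) with spike-in scaling, Adora2b (-0.14) and Adora3 (-0.22) with normexp, Adora2a without induced replicate 1 (0.11) or uninduced replicate 3 (0.26), and Adora3 without induced replicate 1 (-0.019), induced replicate 2 (-0.048) or uninduced replicate 3 (-0.019). The other 8 were Entpd8 (0.20), Entpd4 (1.04) and Aprt (1.05) with spike-in scaling, Entpd4 (0.079) and Aprt (0.080) with median centring, Pde4c without uninduced replicate 1 and without induced replicate 2 (-0.062 to 0.11 over the 6 fits), and Aprt without induced replicate 2 (-0.22 to 0.11 over the 6 fits). With spike-in scaling Adcy1 (-1.10) and Panx1 (2.10) did not pass either. In that fit Adora1, Adora2a, Adora2b and Adora3 had the same SE of 0.72. For these genes a pass there turned on the size of the difference and not on the spread of their own replicates. The settings of the report called 915 genes (601 higher, 314 lower), 11 pathway genes higher and 4 lower, and 2 members higher and 1 lower.

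With the replicate block, which pairs induced and uninduced arrays of the same number, 2347 genes passed (1360 higher, 987 lower), as did 24 pathway genes higher and 10 lower and 3 members lower, Entpd1 and Ada beside Adora1. It changed no other call on a member. Without a filter on dim probes, where more probes were tested, 534 genes passed (356 higher, 178 lower) and 0 pathway genes lower. At an unadjusted p under 0.05 in limma, 12 pathway genes were lower there, beside 1449 of all 20145 genes. Requiring all 6 arrays above background left 7 pathway genes higher and 0 members lower (2 at an unadjusted p under 0.05), because Adora1 was not kept. The share of higher calls was 65.7%, against 76.9% with median centring (median of all genes 0.25) and 98.5% with spike-in scaling. Spike-in scaling called 11 genes lower, with 0 pathway genes lower and 0 at an unadjusted p under 0.05. Median centring and normexp each called 2 pathway genes lower. All arrays shared 1 slide, so no slide effect could be fitted. The slide column used as a block set replicates 1 and 2 apart from replicate 3.

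Read with its columns as named, the deposited table gave 0 genes (0 higher, 0 lower; 222 at an unadjusted p under 0.05, limma), 0 pathway genes higher or lower (0 and 1 unadjusted) and 0 members higher or lower. In that reading 16 differences had the opposite sign, those of Adora1 (0.72), Adora2a (0.91), Entpd1 (0.74), Nt5e (-0.094), Enpp1 (-0.087), Entpd8 (0.074), Adcy7 (-0.29), Gnao1 (-0.40), Adcy1 (0.047), Panx3 (-0.78), Panx1 (-0.25), Gja1 (-0.16), P2ry6 (0.52), P2rx4 (-0.16), Samd5 (0.55) and Slc14a1 (0.91). The files do not settle whether the table's or the scanner files' labels are right. Read by the array each column follows, an alternative chosen after seeing the data, it gave 928 genes and 2 members lower, Adora1 (-2.80) and Ada (-0.79).

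Leaving out 1 array gave 358 to 822 genes (257 to 538 higher, 101 to 284 lower), 7 to 12 pathway genes higher, 0 to 4 lower, 2 to 2 members higher and 1 to 2 lower. Counts of genes moved by over 1.5 times without uninduced replicates 2 (358) and 3 (555) and induced replicates 1 (569), 2 (499) and 3 (550). Pathway genes lower numbered 0 without uninduced replicate 2, induced replicate 2 and induced replicate 3, 1 without uninduced replicate 3 and 2 without induced replicate 1. The fits with 0 each had 10 lower at an unadjusted p under 0.05 in limma. Over all genes 816, 1207 and 994 were lower there, in the order given. Pathway genes higher numbered 7 without uninduced replicate 2, uninduced replicate 3 or induced replicate 2, and members lower 2 without uninduced replicate 1. Entpd8, Adcy1, Panx1, Pde3b and P2ry6 each passed in 1 of these 6 fits. The cause of these changes was not tested. Dim signals limit Adora1, Colec10, Alpl, Enpp1, Panx3, Adcy1 and Gnao1 in size, whose differences with normexp were -1.86, -1.10, 1.62, 0.66, 1.13, -0.77 and 1.31.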
